A study of Mus musculus with 12 samples.

Results

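Groucho-family genes, a feedback inhibitor of Notch and a co-repressor of nuclear receptors were described in mouse embryonic kidney. These 4 genes, Aes, Tle1, Nrarp and hr, were measured on a Notch-pathway membrane array. They were chosen by symbol, with earlier results of these data known, and made up 4 of the 118 genes on the array. RNA of embryonic kidney was hybridised at embryonic days 12 and 13 (E12, E13), with 3 arrays per stage, and at days 14, 16 and 18 (E14, E16, E18), with 2 arrays per stage. The labels name no strain, genotype or treatment, and call the arrays of a stage technical replicates. Each p-value of a stage difference or F test below therefore measures the spread between arrays of a stage, which may be technical. That of a slope rests on the scatter of stage means about a line, unless stated otherwise. None measures the spread between embryos.

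In Notch signalling, a membrane ligand on one cell makes the receptor of its neighbour release an intracellular domain, which joins the DNA-binding protein Rbpj and turns Rbpj from a repressor into an activator. Hes and Hey proteins made in response repress further genes, and Hes proteins do so by recruiting co-repressors of the Groucho family. In the developing kidney, Notch signalling is known for patterning the early nephron and for its part in proximal tubule and podocyte fates.

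Of the 4 genes, 3 act at different points of this pathway, and hr is best known outside it. Tle1 (NM_011599) encodes a full-length Groucho co-repressor, which Hes proteins bind and which also joins Tcf and Lef factors of Wnt signalling. Aes (NM_010347, now named Tle5) encodes a short relative that lacks the WD40 repeats of full-length Groucho proteins and can modulate their action. Nrarp (NM_025980) encodes a small ankyrin-repeat protein that is itself induced by Notch, binds the complex of the receptor's intracellular domain and Rbpj, and limits its output. The array's hr (NM_021877, now written Hr) is mammalian hairless, a co-repressor of thyroid hormone, vitamin D and ROR nuclear receptors that is best known from hair follicles. Despite the name, it is not the counterpart of Drosophila Hairless, the fly's Notch co-repressor. The array gave no probe sequences, so whether the Tle1 spot also binds RNA of related Tle genes was not tested.

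Promoter sequences of 2 of the 4 genes, Nrarp and Tle1, were in the RefSeq promoter table of build GRCm38.p6. They are shown because Nrarp is a Notch target and Tle1 a partner of the Hes proteins that read such sites. The 250 bases before each gene's start follow, 5′ to 3′ on the gene's strand, with matched motifs in capitals. The Nrarp window is chr2:25180508-25180757 on the plus strand and the Tle1 window is chr4:72200894-72201143 on the minus strand.
Nrarp: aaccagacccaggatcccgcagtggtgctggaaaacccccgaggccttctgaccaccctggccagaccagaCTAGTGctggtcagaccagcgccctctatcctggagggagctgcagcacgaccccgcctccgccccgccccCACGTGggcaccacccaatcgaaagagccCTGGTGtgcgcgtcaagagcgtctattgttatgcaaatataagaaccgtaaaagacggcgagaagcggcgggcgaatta
Tle1: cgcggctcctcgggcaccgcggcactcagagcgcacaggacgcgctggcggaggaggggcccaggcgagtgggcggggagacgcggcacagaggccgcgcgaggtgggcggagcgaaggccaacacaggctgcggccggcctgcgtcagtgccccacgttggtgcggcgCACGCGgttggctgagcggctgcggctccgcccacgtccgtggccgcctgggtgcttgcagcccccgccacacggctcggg

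Both strands were searched for the Rbpj core TGGGAA, the class B E-box CACGTG, the class C site CACGCG and the N box CACNAG. The Nrarp window held 1 CACGTG, whose leftmost base lies 108 bases before the gene's start, and 2 matches of CACNAG on the opposite strand, at 179 and 79 bases. The Tle1 window held 1 CACGCG at 81 bases. Neither window held TGGGAA. Among 32851 promoter windows of the same length, 6.02% held CACGTG, 7.62% CACGCG, 36.7% CACNAG and 21.6% TGGGAA. None of the motifs found here overlapped another. These matches describe letters in the windows and not binding.

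A gene counted as above background on an array where it was brighter than a cutoff set at 2 SD over the average of the 6 negative-control spots. The median gene signal ran from 4435 to 9671.5 over the 12 arrays and the mean negative control from 772.5 to 3494.83. Replicate 1 of E13, E16 and E18 were the 3 arrays of highest background. All 4 genes were above background on 12 of 12 arrays, and they were among the 106 genes tested. Their margin differed widely. The deposited signal of Aes was 6.25 to 42.5 times the mean negative control (median 21.6), that of Nrarp 2.52 to 11.6 times (median 4.86), that of hr 1.84 to 6.30 times (median 3.62) and that of Tle1 1.35 to 3.19 times (median 1.82). Tle1 was thus the member measured closest to background. The array held 0 of 14 kidney-defining genes such as Pax2 and Wt1, so the tissue label could not be checked from these data.

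**Figure D1:**
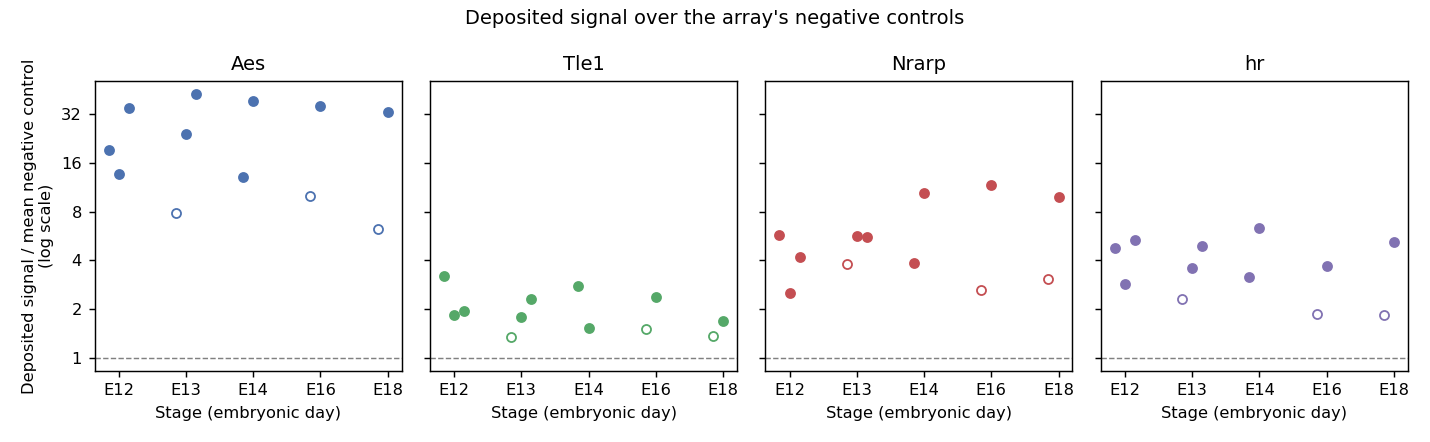
Deposited signal divided by the mean negative control of the same array (log scale) for the 4 genes at each stage. Each point is 1 array, open points are the 3 arrays of highest background, and the dashed line marks the level of the negative controls. Every point lies above the line, with Tle1 between 1.35 and 3.19 and Aes between 6.25 and 42.5.

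Levels below are background-corrected, quantile-normalized log2 signals. Quantile normalization works by rank, so that equal values on different arrays mean equal ranks. The value of a gene at one stage is set only against the same gene at other stages.

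On the quantile-normalized scale Aes varied least of the 4 genes. At E12 its normalized log2 signal was 14.59, 14.70 and 14.66 on replicates 1 to 3. At E13 it was 14.59, 14.41 and 14.54, and at E14 it was 14.66 and 14.88. All E13 arrays lay below both E14 arrays, though E14 replicate 1 was within the range of the E12 arrays. At E16 it was 14.72 and 14.73, and at E18 14.50 and 14.66. The stage means spanned 0.26 log2 units, against a median span of 0.62 over all genes tested. The residual SD, which is the spread among a stage's own arrays, came to 0.093 log2 units for Aes and to a median of 0.357 over all genes. In order of level the stages ran E14, E16, E12, E18 and E13, with gaps between neighbours of 0.048 to 0.073, each smaller than the residual SD. The E16 and E12 arrays did not overlap, as in 21.7% of all genes, and arrays of the other neighbours did. Aes was one of the bright genes, ranked 16 of 106 by mean signal. Its small span did not hold under every scaling. With arrays scaled to their medians, its differences from E12 ran from -0.63 at E18 to -0.11 at E16, a wider span than the 0.35 to 0.54 of Nrarp.

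Aes passed no test of stage. Over the 5 stages its limma F test had an adjusted p of 0.924. In that test 1 of 106 genes passed at an adjusted p under 0.05, or 0.943% of those tested. The largest difference of Aes was 0.26 log2 units (SE 0.12, limma adjusted p = 0.825) for E14 minus E13. The arrays of these 2 stages did not overlap, which held for 15.1% of all genes. For E18 minus E12 it was -0.07 (SE 0.12, limma adjusted p = 0.855), with a 95% interval of -0.35 to 0.20, and the sign turned to 0.06 with no normalization. With array medians it was -0.63 (SE 0.45, limma adjusted p = 0.484), a setting under which the median of all genes stood at -0.44. Without E18 replicate 1 it was 0.01 and without E18 replicate 2 it was -0.16. In the authors' deposited ratios to Ppia, Aes stood at 0.658 ± 0.115 (SD, n = 3) at E12, 0.614 ± 0.048 (SD, n = 3) at E13, 0.714 ± 0.191 (SD, n = 2) at E14, 0.685 ± 0.055 (SD, n = 2) at E16 and 0.630 ± 0.121 (SD, n = 2) at E18. These ratios overlapped between all stages compared with E12.

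Tle1, the full-length Groucho member, showed no order of stages that stood out from its spread. At E12 its normalized log2 signal was 11.21, 11.21 and 10.46. At E13 it was 10.18, 10.96 and 10.66, and at E14 it was 11.69 and 10.51. The highest array of the series and one of the lower ones were thus the 2 arrays of E14. At E16 it was 10.77 and 10.81, and at E18 10.77 and 10.18. Stage means spanned 0.63 log2 units against a residual SD of 0.47. From high to low the stages ran E14, E12, E16, E13 and E18, with gaps of 0.13 to 0.19, and the arrays of every pair of neighbours overlapped.

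The deposited signals of Tle1 give the scale of this spread. They were 3501, 2919 and 1774 at E12, 4019, 1876 and 1783 at E13, 4843 and 1446 at E14, 3479 and 2156 at E16, and 4785 and 1660 at E18. Replicate 1 had the higher signal in all 5 stages, and in E13, E16 and E18 this was the array of high background. The difference in normalized signal for E18 minus E12 was -0.48 (SE 0.40, limma adjusted p = 0.696), with a 95% interval of -1.38 to 0.42. It was -0.78 without E18 replicate 1, -0.19 without E18 replicate 2 and -0.73 without E12 replicate 3. With array medians it was -1.01, and with the negative controls subtracted -0.81. For E14 minus E12 it was 0.15 (SE 0.40, limma adjusted p = 0.92), and without E14 replicate 1 or replicate 2 it ran to -0.44 or 0.74. The F test had an adjusted p of 0.927.

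Nrarp, the feedback inhibitor, was at its lowest at E12. Its normalized log2 signal there was 12.35, 12.13 and 12.13, with replicates 2 and 3 at the same rank. At E13 it was 12.82, 12.73 and 12.25, and at E14 12.61 and 12.82. Replicate 3 of E13 lay among the E12 values, while both E14 arrays were above them. At E16 it was 12.29 and 12.95, and at E18 12.95 and 12.54. Both E18 arrays lay above all 3 E12 arrays, and the E16 arrays straddled the highest of them.

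The 4 later stages of Nrarp could not be ordered. Their means were 12.60 ± 0.31 (SD, n = 3) at E13, 12.71 ± 0.14 (SD, n = 2) at E14, 12.62 ± 0.47 (SD, n = 2) at E16 and 12.74 ± 0.29 (SD, n = 2) at E18, against 12.20 ± 0.13 (SD, n = 3) at E12. Neighbours among the later stages were 0.022 to 0.093 apart, below the residual SD of 0.28. The gap from E13 to E12 was 0.40, above the residual SD, though the arrays overlapped, as they did in all but 4.72% of genes for E13 minus E12. No label pairs arrays of these stages. Same-numbered ones deviated weakly together (r 0.122 to 0.222), within the -0.378 to 0.367 of same-numbered pairs over all stages. Between them Nrarp differed, E13 minus E12, by 0.47, 0.61 and 0.12. The share of all genes with 1 sign in all 3 pairs was not counted, so these signs are a description alone. With the replicate number as a block the Nrarp difference, E13 minus E12, had a limma adjusted p of 0.751.

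No difference of Nrarp from E12 passed the test over all genes. It was 0.40 at E13 (SE 0.22, limma adjusted p = 0.867), 0.52 at E14 (SE 0.25, limma adjusted p = 0.795), 0.42 at E16 (SE 0.25, limma adjusted p = 0.516) and 0.55 at E18 (SE 0.25, limma adjusted p = 0.311). The last is a 1.46-fold higher signal with a 95% interval of -0.02 to 1.11 log2 units. Stage arrays without overlap, as seen for Nrarp at E14 and E18, were found in 22.6% of all genes for E14 minus E12 and in 34.0% for E18 minus E12. At an adjusted p under 0.05, 1.89% of genes passed for E18 minus E12 and for E16 minus E12, 0.943% for E14 minus E12 and 0% for E13 minus E12. All 4 differences share the E12 arrays.

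The direction of Nrarp at E18 did not rest on the scaling, while its size did. Deposited signals of Nrarp were 10701 and 9648 at E18, against 6296, 3988 and 3839 at E12. In the authors' deposited ratios to Ppia it stood at 0.228 and 0.212 at E18, against 0.170, 0.091 and 0.094 at E12. Both scales kept the 2 stages apart, and the share of all genes kept apart on them was not counted. The median gene signal was also higher at E18, at 9671.5 and 8289, against 6514, 4435 and 5024.5 at E12. The Nrarp difference was 0.95 log2 units with housekeeping scaling and with the deposited ratios. With no normalization it was 1.13, a setting under which the median of all genes stood at 0.24. Without the 3 arrays of highest background it was 0.34, and the E18 stage then rests on 1 array. At E16 the value was set by single arrays, at 0.75 without E16 replicate 1 and 0.09 without E16 replicate 2.

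The co-repressor hr was lower at the late stages on the quantile-normalized scale. At E12 its normalized log2 signal was 11.87, 12.61 and 12.29. At E13 it was 11.69, 12.25 and 12.08, and at E14 12.02 and 12.13. These 3 stages overlapped. At E16 it was 11.40 and 11.79, and at E18 11.50 and 11.75. All 4 late arrays lay below all 3 E12 arrays and both E14 arrays, while the lowest E13 array was among them.

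The order of hr levels ran E12, E14, E13, E18 and E16. Stage means were 12.26 ± 0.37 (SD, n = 3) at E12, 12.01 ± 0.28 (SD, n = 3) at E13, 12.07 ± 0.08 (SD, n = 2) at E14, 11.59 ± 0.28 (SD, n = 2) at E16 and 11.62 ± 0.18 (SD, n = 2) at E18. The gap from E13 to E18 was 0.39, above the residual SD of 0.28. The gaps between the other neighbours were 0.031 to 0.186, below it, and the arrays of all neighbours overlapped.

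Against E12, hr differed by -0.67 at E16 (SE 0.25, limma adjusted p = 0.284, unadjusted p = 0.0262), a 1.59-fold lower signal with a 95% interval of -1.23 to -0.10. At E18 it differed by -0.63 (SE 0.25, limma adjusted p = 0.213, unadjusted p = 0.0321), a 1.55-fold lower signal with an interval of -1.20 to -0.07. Neither passed over all genes. Unadjusted p-values under 0.05 were found in 12.3% of genes for E16 minus E12 and in 17.0% for E18 minus E12. Arrays did not overlap in 21.7% and 34.0% of genes in these comparisons. At E13 and E14 hr differed from E12 by -0.25 (SE 0.22) and -0.19 (SE 0.25). In the same-numbered pairs, which no label sets, hr differed for E13 minus E12 by -0.17, -0.36 and -0.20. Tle1 was lower in 2 of these pairs and higher in 1, and Aes was lower in 2 and equal in 1. The share of all genes with 1 sign in all 3 pairs was not counted, so these signs too are a description alone. For E16 minus E14 hr differed by -0.48 (SE 0.27, limma adjusted p = 0.848), with no overlap, as in 31.1% of genes.

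At E18 the size of the hr difference, and the place of E18 relative to E13, depended on the scaling. Deposited hr signals were 6432 and 5086 at E18, against 5257, 4538 and 4906 at E12, so that before normalization the 2 stages overlapped and the highest array was of E18. In the authors' deposited ratios to Ppia, hr stood at 0.106 and 0.111 at E18, against 0.140, 0.107 and 0.120 at E12, again with overlap. The mean ratio was 0.109 at E18, above the 0.098 of E13. Mean deposited hr signal was 5759 at E18, the highest of the stages, against 4817 at E13. The difference for E18 minus E12 was -0.22 with housekeeping scaling, -0.16 with the deposited ratios and -0.04 with no normalization. Measured from the median of all genes, it was -0.65 with quantile normalization. With array-median, housekeeping or no scaling it was -0.28, necessarily 1 value, since these differ only by a constant per array.

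At E16 the lower hr signal was present on every scale tried. Deposited signals were 4346 and 3324 at E16, against 4538 or more at E12. Ratios to Ppia were 0.086 and 0.072 at E16, against 0.107 or more at E12. Over the other scalings and background corrections the difference for E16 minus E12 ran from -0.84 to -0.56. In E13, E14, E16 and E18, the array of highest background had the lowest normalized hr of its stage. At E12 the array of highest background, replicate 2, instead had the highest hr of the series (12.61). Over the 12 arrays r between hr and the log2 negative control was -0.51, a description over arrays that share stages. Without the 3 arrays of highest background hr differed from E12 by -0.47 at E16 and by -0.51 at E18. The part of background in the hr values was otherwise not tested.

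**Figure D2:**
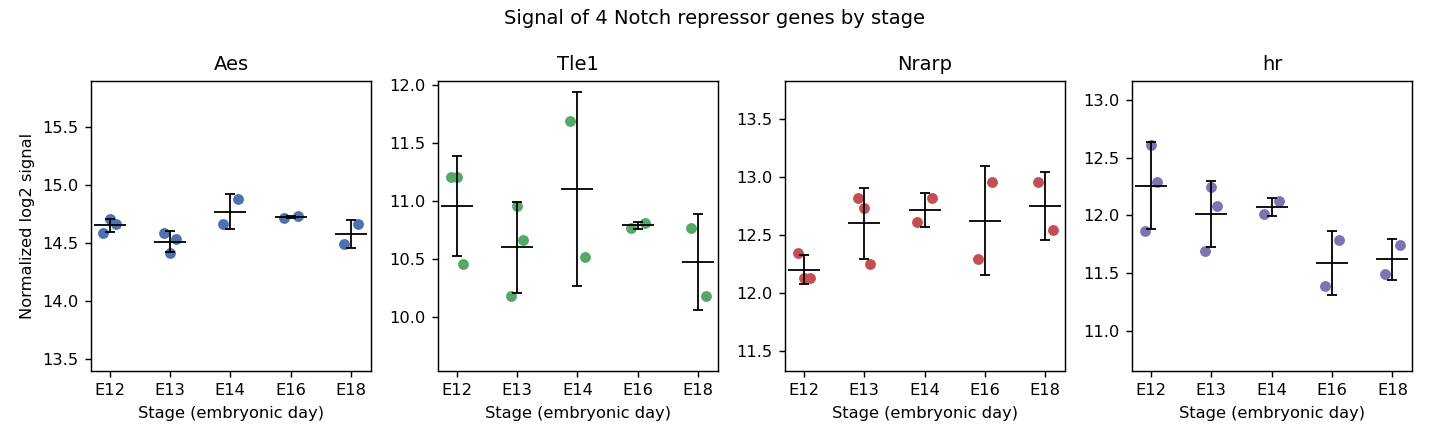
Normalized log2 signal of Aes, Tle1, Nrarp and hr by stage, in panels of equal height on the log2 scale. Points are arrays, and the black marks are the stage mean and SD (3 arrays at E12 and E13, 2 at the later stages). Nrarp is lowest at E12, with a mean of 12.20, hr lies lowest at E16 and E18, with means of 11.59 and 11.62, and Tle1 has the widest spread between arrays.

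Over gestational day, with each stage taken as 1 value, hr had the steepest slope of the 4 genes on the quantile-normalized scale. It was -0.11 log2 units per day, with an SE of 0.03 (limma adjusted p = 0.143, unadjusted p = 0.0121). The slope was 0.06 for Nrarp (SE 0.03, limma adjusted p = 0.448), -0.06 for Tle1 (SE 0.04, limma adjusted p = 0.547) and 0.0002 for Aes (SE 0.03, limma adjusted p = 0.994). None passed, in a test that 1.89% of all genes passed, while 17.0% of all genes had an unadjusted p under 0.05. With arrays rather than stage means as the unit and stage as a random block, hr had an adjusted p of 0.0321. That block had a consensus correlation of -0.14, which treats arrays of a stage as carrying more than independent information. The hr slope was -0.05 with housekeeping scaling, -0.04 with the deposited ratios and -0.04 with no normalization. Under these same settings the slope of Nrarp was 0.13, 0.14 (limma adjusted p = 0.126) and 0.15, steeper than that of hr. Without E12 the slope of Nrarp was 0.02, and without E18 replicate 1 it was 0.03.

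**Figure D3:**
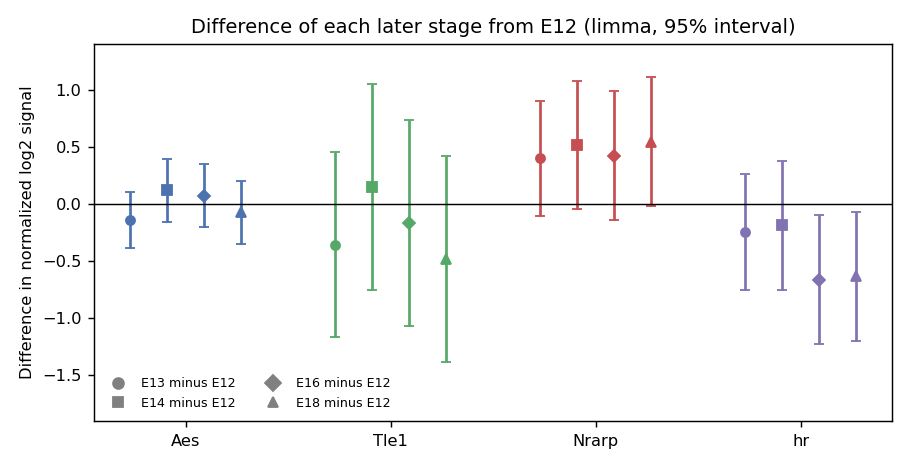
Difference of E13, E14, E16 and E18 from E12 in normalized log2 signal for each gene, from limma over all 12 arrays, with 95% intervals not adjusted for the number of genes. The intervals of hr at E16 and E18 lie below 0, from -1.23 to -0.10 and from -1.20 to -0.07, and all other intervals include 0.

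As a group the 4 genes had 0 members past the limma test in any of the 7 stage comparisons, the F test or the trend. At an unadjusted p under 0.05, hr was the 1 member in E16 minus E12, in E18 minus E12 and in the trend, and no member was counted elsewhere. Of all genes, 12.3% reached that level for E16 minus E12, 17.0% for E18 minus E12 and 17.0% in the trend. That level was reached by 11.3% of all genes in the F test, 4.72% for E13 minus E12, 4.72% for E14 minus E12, 5.66% for E14 minus E13, 7.55% for E16 minus E14 and 3.77% for E18 minus E16. For E18 minus E12, 1 was above 0 and 3 were below, with a median of -0.28, beside 56 above and 50 below among 106 genes tested and a median of 0.02. For E14 minus E13 all 4 were above 0 (median 0.19) and for E16 minus E14 all 4 were below 0 (median -0.20), and these comparisons share the E14 arrays. Among all genes 55 were above 0 in each of these comparisons, with a median of 0.01 in both. At an adjusted p under 0.05, 0% of genes passed for E14 minus E13 and 0.943% for E16 minus E14. For E18 minus E16, passed by 0% of genes, the 4 differences ran from -0.31 for Tle1 to 0.12 for Nrarp. In that comparison the Aes arrays did not overlap (14.50 and 14.66 at E18, against 14.72 and 14.73 at E16), as in 21.7% of genes.

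Across the 12 arrays the 4 genes did not share 1 pattern. Pearson's r between pairs ran from -0.43 for Nrarp and hr to 0.28 for Tle1 and hr. Over the 5 stage means the extremes were -0.66 for Nrarp and hr and 0.81 for Aes and Tle1, a pair whose r over arrays was -0.09. These are descriptions over points that share arrays and normalization.

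Neither the other co-repressors nor the Rbpj complex had a gene past the test for E18 minus E12. The list of other co-repressors had 2 genes on the array and 0 past it. Of these, Spen, which binds Rbpj in its repressor state, differed by 0.05 (SE 0.17). Of 5 tested genes of the Rbpj complex and its co-activators, 0 passed, with a median of 0.13. In this list Ep300, a histone acetyltransferase, differed by 0.74 (SE 0.56) and Maml1, the scaffold of the active complex, by 0.13 (SE 0.12).

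Of 6 Hes and Hey genes, 0 passed and the median was -0.05, with Hes6 at -0.18 (SE 0.11) and Hey2 at -0.51 (SE 0.39). Of 4 Notch receptors, 0 passed, all 4 were above 0 and the median was 0.28, with Notch1 at 0.70 (SE 0.28, limma adjusted p = 0.224) and Notch2 at 0.39 (SE 0.38). Among 5 Notch ligands, whose median was 0.40, 1 passed, Jag1 at 0.85 (SE 0.17, limma adjusted p = 0.0476), and Jag2, at 1.07 (SE 0.50), was above background on 2 of 2 E18 arrays and 1 of 3 E12 arrays. Of 13 Wnt and beta-catenin genes, the other pathway of Groucho proteins, 0 passed and the median was -0.05, with Fzd3 at -0.91 (SE 0.54) and Fzd6 at 0.58 (SE 0.47). The array held 0 of 6 nuclear receptor partners of hairless such as Vdr and Thra. Housekeeping genes had 0 of 5 past the test and a median of 0.02, with B2m at 0.23 (SE 0.14) and Rps27a at 0.19 (SE 0.13). The call of Jag1 depended on the processing, since 0 genes passed for E18 minus E12 when the filter on dim genes was dropped, with housekeeping scaling, with the replicate block and without any 1 of the E12 or E18 arrays.

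The genes most like each member were ranked by Pearson's r over the 12 arrays. For Nrarp these were Crtc1, a CREB co-activator (r 0.89), Numb, an inhibitor of Notch (0.84), and Notch1 (0.84), with r over the 5 stage means of 0.87, 0.84 and 0.96. Like Nrarp, all 3 had their lowest stage mean at E12, and mean Notch1 was 14.28 to 14.61 at the later stages, against 13.91 at E12.

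For hr the nearest included Krt1, a keratin of differentiating epidermis (r 0.71), and Lor, loricrin of the cornified envelope (0.67), with r over stage means of 0.96 and 0.98. Mean Lor was 13.42, 13.09 and 13.37 at E12, E13 and E14, then 11.80 at E16 and 11.90 at E18. Among keratinocyte markers on the array, 6 of 6, the summed normalized signal was 46942 to 56849 at E12, 35409 to 43353 at E13, 33220 to 38391 at E14, 22619 to 28781 at E16 and 31797 to 32747 at E18. As for normalized hr, this sum was lowest at E16 and highest at E12. Deposited signals summed to 46848 to 50507 at E12, 38450 to 61319 at E13 and 35294 to 53387 at E14. At E16 the deposited sum was 29837 to 34236 and at E18 42160 to 48790. It was again lowest at E16, but E18 overlapped E12 and the highest array was of E13. Single markers did not all follow the normalized sum. For E14 minus E12, 5 markers were below 0 and 1 above, from -2.28 to 0.05, while hr differed by -0.19. There 1 marker passed the test, with a lower signal at E14, where 0.943% of all genes passed. For E16 minus E12, 5 markers were below 0 and 1 above, from -1.66 to 0.49. For E16 minus E14, 4 were below 0 and 2 above, from -1.57 to 1.07. Ivl was below background on at least 1 array at E12, E13, E14 and E18, and Krt5 at E13 and E16, while the other 4 were above it on every array. In RNA of a whole organ, fewer cells of a type and less RNA per cell cannot be told apart, and the part of keratinocyte markers in the hr values was not tested. For blood-cell markers, 7 of 11 on the array, the sum was 27464 to 35490 at E12, 34090 to 37654 at E13, 35282 to 35441 at E14, 34446 to 34462 at E16 and 35507 to 35580 at E18. At E12 and at E18, 4 of the 7 were below background on at least 1 array. For E18 minus E12, keratinocyte markers had 1 of 6 past the test, Krt1 at -0.69 (SE 0.14, limma adjusted p = 0.0476), and a median of -0.43. As for Jag1, the call of Krt1 was lost when the filter on dim genes was dropped, with housekeeping scaling and with the replicate block, under each of which 0 genes passed for E18 minus E12. Blood-cell markers had 0 of 4 tested past it and a median of 0.18, with Lmo2 at 0.20 (SE 0.14) and Pax5 at 0.67 (SE 0.82). The array held 0 of 9 endothelial markers.

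**Figure D4:**
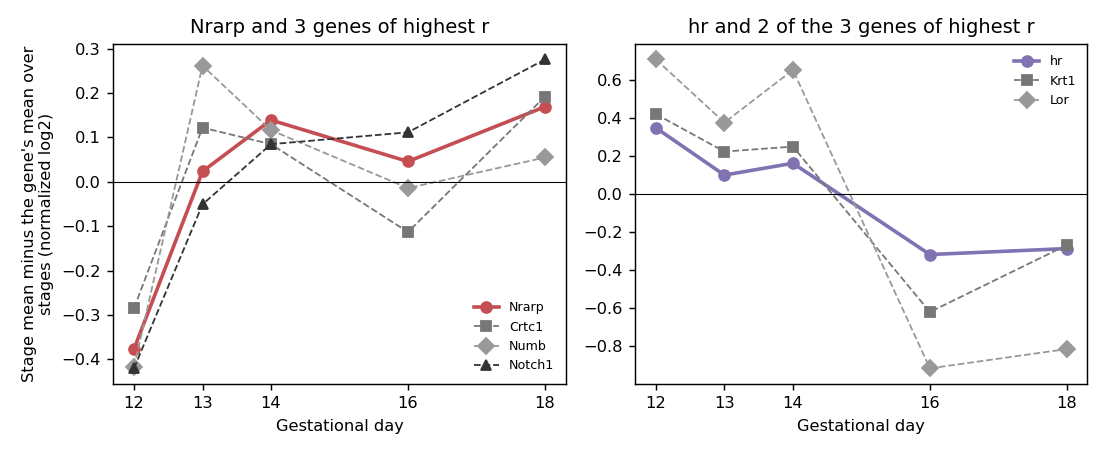
Stage means of Nrarp (left) with the 3 genes of highest Pearson's r over the 12 arrays, and of hr (right) with 2 of its 3, each drawn as the difference from the gene's own mean over the 5 stages in normalized log2 units, against gestational day. Nrarp, Crtc1, Numb and Notch1 are lowest at day 12, and hr, Krt1 and Lor are lowest at day 16.

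For Tle1 the nearest genes were Wisp1, a Wnt-induced secreted protein (r 0.84), Stil (0.82), and Wdr12, a ribosome assembly factor (0.76). Their r with Tle1 over stage means was 0.77, 0.77 and 0.38. For Aes they were Fzd7, a Wnt receptor (r 0.57), Figf, a vascular growth factor (0.49), and Gapdh, a glycolytic enzyme (0.48), with r over stage means of 0.69, 0.58 and 0.95. The highest r of any gene with Aes was thus below the third highest of each other member.

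**Figure D5:**
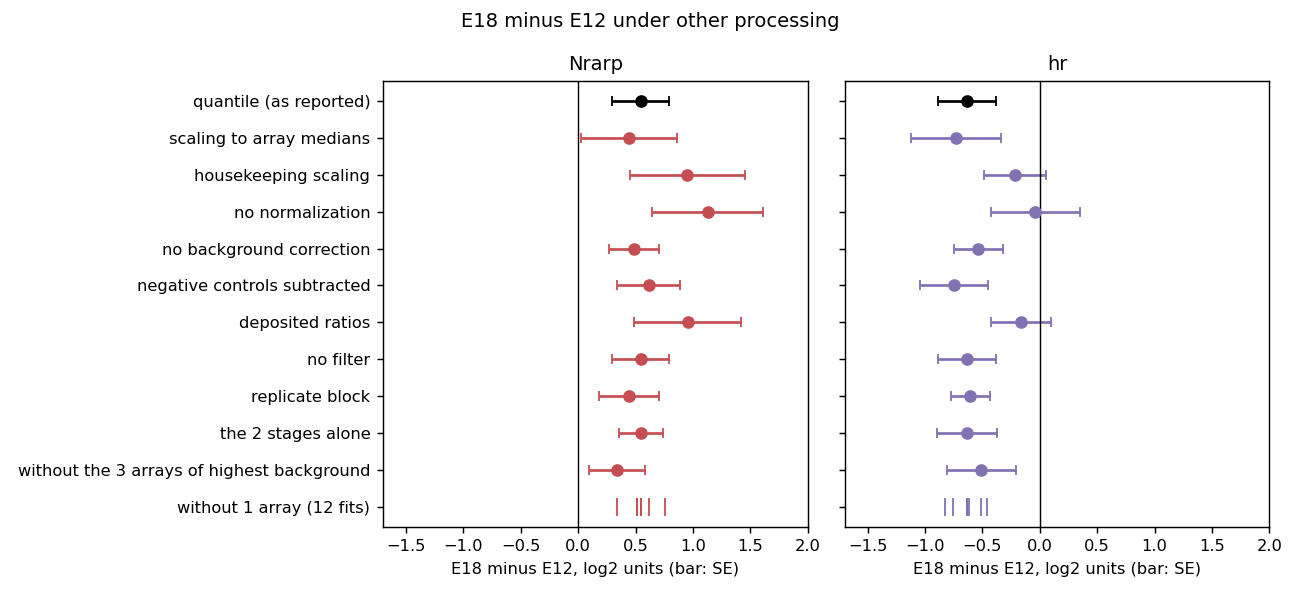
Difference of E18 minus E12 for Nrarp and hr under the settings listed at the left, in log2 units. Points and bars are the value and its SE, the black point is the value reported here, and the bottom marks are the 12 fits that leave out 1 array. Nrarp stays above 0, from 0.34 to 1.13, and hr below 0, from -0.83 to -0.04.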

How the data were processed

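Biotin-labelled RNA was read by chemiluminescence, per the labels' protocols and the series' design text. Each deposited file held 1 whole-number intensity for each of 128 spots, 120 of them for genes. No source used here names the image software, and the values were taken as not background-subtracted. The authors' deposited ratio table, on a linear scale, could be rebuilt as the distance of a spot from the dimmest spot divided by that of Ppia.

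Signals were corrected by normexp (offset 50, all spots), converted to log2, quantile-normalized across the gene spots and averaged over duplicates. Genes above background throughout at least 1 stage (106) were tested and 12 were not. The stages were fitted in limma 3.58.1 (R 4.3.3) as 5 means with a common spread, and the trend used the stage means. Tests are 2-sided, Benjamini-Hochberg adjusted over all genes tested, at a threshold of 0.05. With 2 or 3 arrays per stage, precision is limited by their number. The rule named the 4 members, up to 2 genes of smallest p in E18 minus E12 per list and the 3 genes most like each member. One gene that the rule takes is not reported here, and it stayed in every fit and count. Members and lists were chosen with earlier results of these data known. The fits were tested on simulated data. Alternatives that left out arrays kept the normalized values. Of 116 symbols with a RefSeq accession, 115 matched the RefSeq gene table of GRCm38.p6, a build used for names and promoter windows alone. The 3 same-numbered pairs of E12 and E13 arrays deviated weakly together across genes (r 0.122 to 0.222). They were therefore also looked at as pairs, though no label pairs them. Arrays of unlike number were not set beside them, so the pairing is not established.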

Additional observations from a re-analysis of the deposited data

How the results depend on the processing

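No difference, slope or F test of the 4 genes passed the threshold, and of 840 values under other settings 1 did, the hr slope with stage as a random block. In 42 the sign was not the reported one. The 840 include F tests, which have no sign, and fits that could not move a difference, such as those without an array of a stage outside it. With array medians, Aes stood at -0.13 for E14 minus E12, -0.11 for E16 minus E12, -0.00563 for E14 minus E13, 0.020 for E16 minus E14 and -0.087 for its slope, Tle1 at -0.28 for E14 minus E12 and Nrarp at -0.073 for E18 minus E16. Housekeeping scaling gave -0.033 (Tle1) and 0.12 (hr) for E14 minus E12, and an Aes slope of -0.013. Unnormalized, Aes was at 0.12 for E13 minus E12 and 0.060 for E18 minus E12, and hr at 0.24 for E14 minus E12. The deposited ratios gave -0.12 (Tle1) and 0.078 (hr) for E14 minus E12, and an Aes slope of -0.00132. Without the 3 arrays of highest background, Aes was at 0.011 for E18 minus E12, hr at -0.096 for E14 minus E13 and -0.041 for E18 minus E16, and Nrarp at 0.24 for E16 minus E14 and -0.42 for E18 minus E16.

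Fits that left out 1 array or stage also turned signs. Aes ranged between -0.16 and 0.011 for E18 minus E12, between -0.15 and 0.059 for E16 minus E14, and between -0.013 and 0.033 for its slope. Tle1 ranged between -0.44 and 0.74 for E14 minus E12, between -0.087 and 1.09 for E14 minus E13, and between -0.90 and 0.28 for E16 minus E14. Nrarp ranged between -0.060 and 0.22 for E14 minus E13, between -0.42 and 0.24 for E16 minus E14, and between -0.21 and 0.45 for E18 minus E16. The range of hr was -0.096 to 0.18 for E14 minus E13 and -0.16 to 0.23 for E18 minus E16. The cause was not tested for any of these.

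Over the whole array, counts of genes past the threshold, which need not be of the same genes, were 1 for the F test, 0, 1, 2 and 2 for E13, E14, E16 and E18 against E12, 1 for E16 against E14 and 2 for the trend. Both housekeeping scaling and unnormalized values left 0 in each of these apart from the trend, and so did leaving out the 3 arrays of highest background. The deposited ratios left 0 in the F test, against E12 at E16 and E18, and for E16 against E14. Array medians gave 2 in the F test, 1 at E16, 1 at E18 and 0 for E16 against E14. The replicate block gave 0 in the F test, 1 at E16, 0 at E18 and 0 for E16 against E14. Fitting 2 stages alone left 0 at E14, E16, E18 and for E16 against E14, and dropping the filter left 0 at E18. Uncorrected background gave 1 at E13 and 4 at E16, and subtracted negative controls gave 2 in the F test. The prior that follows signal gave 6 in the F test, 1 at E13, 4 at E16, 4 at E18, 0 for E16 against E14 and 12 for the trend, and stage as a random block gave 12. Fits without 1 array or stage gave at least 0 and at most 3 genes in the F test, 6 at E18, 3 at E16, 2 at E14, 1 for E14 against E13, 2 for E16 against E14 and 3 for the trend. The replicate block changed no call of the 4 genes, and hr then stood at -0.61 for E18 minus E12 (limma adjusted p = 0.14). Over all stages the same-numbered pairs had r from -0.378 to 0.367, with 8 of 21 above 0.1. Between stages of 2 arrays both pairs have the same r by construction, so these 21 are not all separate values. Tle1 had the lowest signal over background of the 4 genes, and the part of background in its spread was not tested.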
